A study of Homo sapiens with 20 samples.

Results

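The genes described here are 9 genes of polyamine metabolism (ODC1, AMD1, SRM, SMS, SAT1, SMOX, OAZ1, OAZ2 and AZIN1), chosen by gene symbol among the 57773 genes of each of 2 count tables, in which every one of them was found. RNA-seq was performed in LNCaP, a human prostate adenocarcinoma cell line, under 10 conditions. For 2 of these, parental LNCaP cells were transfected for 2 days with 20 nM of a pool of small interfering RNAs against EHMT1 (siEHMT1) or with a nontarget control pool (siNTC), with 2 samples each. EHMT1 is a histone methyltransferase that acts on lysine 9 of histone H3. The other 8 conditions came from 4 stable LNCaP lines, which carried a doxycycline-inducible, V5-tagged EHMT1 of wild-type sequence (WT) or with arginine in place of lysine at either of a pair of neighbouring positions (K450R and K451R) or at both (K450RK451R). Each line received vehicle (Veh) or 0.25 μg/mL of doxycycline (Dox) for 2 days, and each of these conditions had 2 columns of counts. The lines were made by viral transduction and puromycin selection. Each line kept its endogenous EHMT1, and no line without an EHMT1 insert was analysed here, so an effect of doxycycline and an effect of the induced EHMT1 cannot be told apart.

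Polyamines are small, positively charged molecules that bind nucleic acids, and the secretory epithelium of the prostate makes and releases large amounts of them. ODC1, ornithine decarboxylase, makes putrescine in the rate-limiting step, and AMD1 makes decarboxylated S-adenosylmethionine, the donor of the aminopropyl groups with which SRM (spermidine synthase) and SMS (spermine synthase) build spermidine and spermine. SAT1 acetylates polyamines for export or breakdown, and SMOX oxidizes spermine back to spermidine. OAZ1 and OAZ2 are antizymes, which bind ODC1 and direct it to the proteasome, and AZIN1 is an inactive relative of ODC1 that captures antizymes.

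Sequences upstream of start sites are shown for ODC1 and SRM, whose summed counts gave higher levels with Dox in all 4 lines, and for SAT1, which passed the test for a difference between the lines. They are RefSeq sequences on GRCh38.p14, another build than the hg19 used for the counts. For ODC1, the 250 bases before its upstream start (chr2:10448328-10448577, minus strand, 78.8% G or C) and the 100 bases before an inner start (chr2:10448013-10448112, minus strand, 86% G or C) are given. The SRM window (chr1:11060019-11060268, minus strand, 82% G or C) and the SAT1 window (chrX:23782923-23783172, plus strand, 66.4% G or C) cover 250 bases each. Capitals mark the letters CACGTG, known as an E-box.
ODC1, upstream start: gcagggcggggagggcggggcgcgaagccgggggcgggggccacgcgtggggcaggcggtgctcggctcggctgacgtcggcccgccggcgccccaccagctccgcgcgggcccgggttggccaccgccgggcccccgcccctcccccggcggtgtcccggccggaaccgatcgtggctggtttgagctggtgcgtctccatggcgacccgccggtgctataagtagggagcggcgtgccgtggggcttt
ODC1, inner start: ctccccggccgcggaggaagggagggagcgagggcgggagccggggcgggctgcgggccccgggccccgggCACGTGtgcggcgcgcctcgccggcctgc
SRM: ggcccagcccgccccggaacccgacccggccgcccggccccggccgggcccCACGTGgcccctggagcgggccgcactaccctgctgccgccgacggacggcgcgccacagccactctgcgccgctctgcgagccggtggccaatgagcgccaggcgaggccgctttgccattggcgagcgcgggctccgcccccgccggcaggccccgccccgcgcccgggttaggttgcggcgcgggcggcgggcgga
SAT1: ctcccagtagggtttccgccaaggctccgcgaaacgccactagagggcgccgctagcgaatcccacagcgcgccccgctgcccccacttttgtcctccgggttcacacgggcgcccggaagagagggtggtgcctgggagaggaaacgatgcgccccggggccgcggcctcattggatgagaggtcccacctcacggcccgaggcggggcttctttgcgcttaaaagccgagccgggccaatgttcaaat

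RefSeq windows were found for 7 of the 9 genes (10 windows, since ODC1 and AMD1 have more than 1 start), and SMOX and AZIN1 had none. The 250 bases before each start were searched on both strands. CACGTG occurred in 2 of the 10 windows, 29 bases before the inner start of ODC1 and 199 bases before the start of SRM, and in 6.34% of all 35116 windows of the table. GGGCGG, the core of a GC box, occurred in 9 of the 10 windows, that of SAT1 being the exception, and in 42.6% of all windows. By gene this was 6 of 7, since ODC1 and AMD1 have several windows and 2 AMD1 windows start 1 base apart and hold the same match. CCAAT occurred in 5 of the 10 windows, including those of SRM and SAT1, and in 32.0% of all windows. These matches describe letters only, and binding was not measured here.

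Total counts lay between 5593400 and 12438006 in the siRNA samples and between 8436791 and 12407739 in the stable-line conditions. The 2 columns of each stable-line condition differed by no more than counting noise, their chi-square over genes being 0.995 to 1.02 per degree of freedom, and were summed and counted as 1 sample. The siRNA samples of a group differed by more than that (13.4 to 61.6, or 6.17 to 6.58 without 2 pseudogenes that resemble ribosomal RNA). Those pseudogenes held 10.0% of the counts in the second siNTC sample and at most 1.0% in the other siRNA samples. Nothing in the labels says that the siRNA samples came from separate cultures, so the p-values measure the spread between these samples, which may be technical. The luminal prostate gene KLK3 was read in every library, and the basal genes KRT5 and TP63 and the leukocyte gene PTPRC had 0 counts in all 12 libraries, while the basal gene KRT14 had 2 to 18 counts (0.225 to 1.52 CPM). EHMT1 was at 87.75 and 83.59 CPM with siNTC and at 29.23 and 30.74 CPM with siEHMT1 (CPM, read counts scaled to library size by TMM), and Dox raised it 7.46-fold to 10.4-fold, from 71.72 to 88.86 CPM with Veh to 662.5 to 842.1 CPM.

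The genes were first ordered by level per length (CPM per kb of merged exons), since counts of different genes can be compared only after division by length. In the siNTC samples OAZ1 was highest, with a mean of 192.6 CPM per kb, followed by ODC1 with 126.2, AMD1 with 88.1 and SRM with 53.5. Below them stood SAT1 with 35.9, AZIN1 with 27.6, SMS with 23.9, OAZ2 with 12.9 and SMOX with 1.77, and the 2 samples of a gene did not overlap with those of its neighbours in this order. The order depends on the merged length of all annotated exons, 10193 bases for AMD1 and 3307 for ODC1. These lengths are those of GENCODE release 44, and the exons over which the reads were counted may differ from them. Before division by length, AMD1 was above ODC1 with siNTC (means of 898.0 and 417.1 CPM). Which transcripts were expressed was not tested. In the 4 lines with Veh, OAZ1 was again highest (272.6 CPM per kb), and SAT1 stood directly below it (170.1), above AMD1 (109.1) and ODC1 (92.1). SMS (34.0) and AZIN1 (29.6) overlapped between lines, as did OAZ2 (17.9) and SRM (15.6), and SMOX was lowest (5.81).

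**Figure D1:**
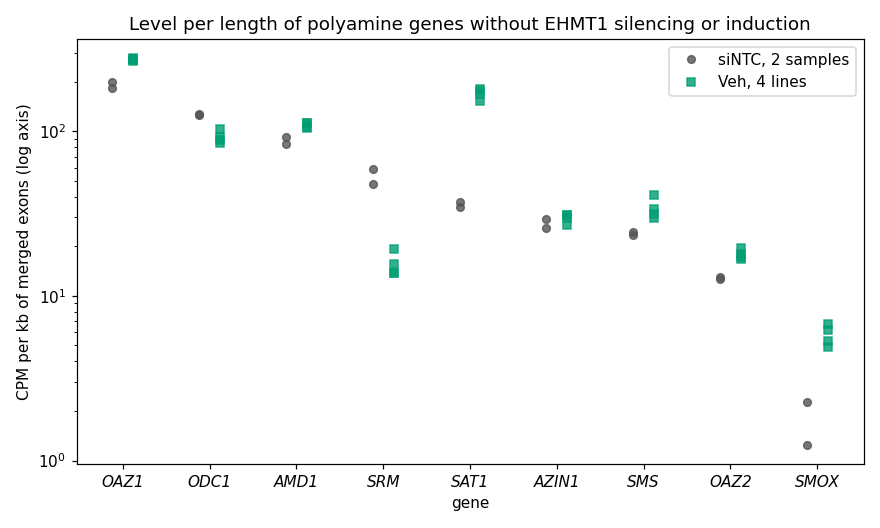
Level of each gene in CPM per kb of merged exons (log axis) in the 2 siNTC samples (circles) and the 4 stable lines with Veh (squares), each point being 1 sample or line. OAZ1 is highest and SMOX lowest in both, and SAT1, SRM and SMOX lie farthest apart between circles and squares.

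SAT1, SMOX and SRM differed most in level between parental cells treated with siNTC and the uninduced lines. Mean SAT1 was 422.1 CPM with Veh and 89.0 CPM with siNTC (4.74-fold higher with Veh), and SMOX was 17.1 and 5.20 CPM (3.29-fold higher). SRM was 29.5 CPM with Veh and 101.3 CPM with siNTC, 3.43-fold lower. Among 13617 genes, 1.79% were over 4-fold higher with Veh, as SAT1 was, and 1.83% over 4-fold lower. SMOX and SRM did not pass 4-fold. The ratio of Veh to siNTC was below that of SMOX in 97.3% of these genes and below that of SRM in 2.8%. The remaining 6 genes differed by 1.07-fold to 1.42-fold. The tables come from separate experiments and were normalized separately, so no test was made, and cells, experiment and library cannot be told apart.

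The effect of Dox shared by the 4 lines was tested with edgeR's quasi-likelihood test, with the line as a block. The 4 lines served as replicates although each carried a different EHMT1 insert, so differences between their Dox responses count as spread. ODC1 rose and was the only one of the 9 genes to pass an adjusted p of 0.05, a threshold passed by 2.11% of the 14105 genes tested (0.603% in the higher direction). At an unadjusted p under 0.05, 3 of the 9 genes passed (ODC1, SRM and SAT1), against 14.4% of all genes. The median log2 fold change of the 9 genes was 0.0054 and that of all genes tested 0.0050.

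ODC1 (ENSG00000115758, hg19 chromosome 2 from 10580094 to 10588453) was at 304.3 CPM with Veh and 340.2 CPM with Dox in the WT line. With Veh and Dox, K450R had 293.0 and 328.1 CPM, K451R had 279.5 and 346.1 CPM, and K450RK451R had 341.6 and 406.2 CPM. Every line was higher with Dox, by 1.12-fold to 1.24-fold, although the Veh and Dox levels of different lines overlapped. The shared log2 fold change was 0.22 (SE 0.053, adjusted p = 0.0220 with edgeR's quasi-likelihood test). The call rested on all 3 mutant lines: the adjusted p from edgeR was 0.0788 without K450R, 0.224 without K451R and 0.105 without K450RK451R, and 0.00939 without WT. It was also lost when only the second column of each condition was used (adjusted p = 0.0949 with edgeR).

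SRM (ENSG00000116649, chromosome 1 from 11114641 to 11120077) was the synthesis gene with the largest ratio in any line. Its level was 26.0 CPM with Veh and 29.87 CPM with Dox in WT, 26.02 and 42.67 CPM in K450R, 29.78 and 36.95 CPM in K451R, and 36.31 and 39.66 CPM in K450RK451R. The K450R value with Dox was thus the highest of the 8, and its Veh value was next to the lowest. With the columns summed, all 4 lines were higher with Dox, with a shared log2 fold change of 0.33 (SE 0.096) that did not pass the threshold (adjusted p = 0.0719 with edgeR). It passed without WT (adjusted p = 0.0475 with edgeR) and without K450RK451R (adjusted p = 0.0480 with edgeR). Over all fits with 1 line left out, it lay between 0.21 and 0.40, and its adjusted p from edgeR reached 0.437. SRM had few counts here, 211 to 512 per condition, and from the first columns alone its log2 ratio was −0.17 in K450RK451R and −0.015 in WT, against 0.42 and 0.43 from the second, so its direction in these 2 lines depended on the columns used.

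AMD1 and SMS, which supply the aminopropyl donor and make spermine, did not pass. AMD1 (ENSG00000123505, chromosome 6 from 111195973 to 111220082) was at 1090 and 1073 CPM in WT with Veh and Dox, at 1145 and 1135 CPM in K451R and at 1147 and 1137 CPM in K450RK451R. In K450R it was at 1066 CPM with Veh and 1247 CPM with Dox. Its shared log2 fold change was 0.045 (SE 0.053, adjusted p = 0.762 with edgeR), and −0.015 without K450R. SMS (ENSG00000102172, chromosome X from 21958827 to 22012955) was at 63.05 and 66.27 CPM in WT, 71.77 and 65.28 CPM in K450R, 87.64 and 70.55 CPM in K451R, and 67.35 and 59.1 CPM in K450RK451R. It was lower with Dox in the 3 mutant lines, and in WT its log2 ratio was 0.072, or −0.0455 from the second columns alone. The shared log2 fold change was −0.14 (SE 0.072, adjusted p = 0.361 with edgeR).

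**Figure D2:**
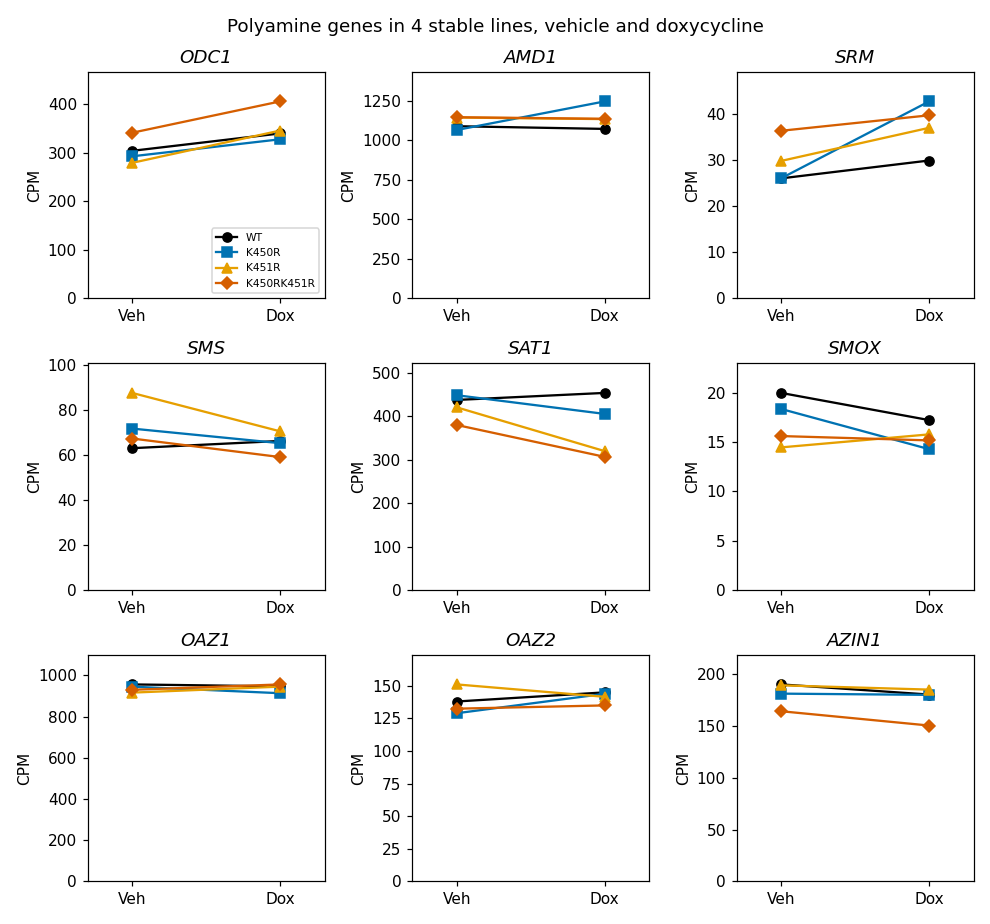
Level in CPM (vertical axis, from 0) of each gene with Veh and Dox in the 4 stable lines, each line of the plot joining the summed libraries of 1 cell line. ODC1 and SRM, as summed counts, are higher with Dox in all 4 cell lines, and SAT1 is lower with Dox in the 3 mutant lines and not in WT.

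Of the catabolic genes, SAT1 (ENSG00000130066, chromosome X from 23801290 to 23804327) was at 438.1 CPM with Veh and 454.3 CPM with Dox in WT. The mutant lines had 449.0 and 405.9 CPM (K450R), 421.1 and 320.1 CPM (K451R) and 380.4 and 306.9 CPM (K450RK451R) with Veh and Dox. The lowest values were those of K451R and K450RK451R with Dox, and the WT values lay among the highest. The shared log2 fold change with Dox was −0.20 (SE 0.061) and did not pass (adjusted p = 0.0854 with edgeR), whereas without WT it was −0.28 (adjusted p = 0.00202 with edgeR). With 1 line left out in turn, it lay between −0.28 and −0.13, with an adjusted p from edgeR of up to 0.53. SMOX (ENSG00000088826, chromosome 20 from 4101627 to 4168394) was the least abundant of the 9 genes. With Veh and Dox it was at 20.0 and 17.24 CPM (WT), 18.37 and 14.29 CPM (K450R), 14.47 and 15.79 CPM (K451R), and 15.62 and 15.18 CPM (K450RK451R), so the conditions overlapped. The shared log2 fold change of SMOX was −0.12 (SE 0.12, adjusted p = 0.708 with edgeR), on 119 to 237 counts per condition.

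Of the genes that control ODC1 protein, none passed the test, and their levels varied little. OAZ1 (ENSG00000104904, chromosome 19 from 2269508 to 2273489) stayed between 913.2 and 955.9 CPM over all 8 conditions, with a shared log2 fold change of 0.0054 (SE 0.050). OAZ2 (ENSG00000180304, chromosome 15 from 64979772 to 64995480) lay between 128.9 and 151.0 CPM, with a shared log2 fold change of 0.040 (SE 0.060). AZIN1 (ENSG00000155096, chromosome 8 from 103838339 to 103906092) lay between 150.5 and 190.2 CPM, with a shared log2 fold change of −0.061 (SE 0.056). Its log2 ratio was below 0 in each line, but in K450R it was −0.0098 and turned to 0.010 with upper-quartile scaling. The adjusted p of these 3 genes with edgeR was 0.980, 0.824 and 0.673. In GENCODE release 44, exons of OAZ1, AZIN1 and SAT1 overlap those of another gene on the same strand, and exons of OAZ1 and OAZ2 those of another gene on the opposite strand (JSRP1 for OAZ1). Whether strand was used in counting is not given in the sources used here, so the counts of these 4 genes could hold reads of their neighbours.

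Within a line there was 1 library with Veh and 1 with Dox, so log2 ratios are given with an exact 95% interval that covers counting error only. The interval of ODC1 lay above 0 in all 4 lines, at 0.16 (0.091 to 0.23) in WT, 0.16 (0.086 to 0.24) in K450R, 0.31 in the K451R line and 0.25 in K450RK451R. For SAT1 the interval lay below 0 in the 3 mutant lines and included 0 in WT, at 0.052 (−0.0074 to 0.11). The SRM interval lay above 0 in 2 lines, and in K450R the log2 ratio of SRM was 0.71 (0.47 to 0.96). This was the only ratio of the 9 genes past 1.5-fold in either direction. Of all genes tested, 11.3% were past 1.5-fold in WT, 13.0% in K450R, 11.6% in the K451R line and 13.9% in K450RK451R. AMD1 had an interval above 0 in K450R alone, at 0.23 (0.19 to 0.27). The other genes had intervals without 0 as well. That of SMS lay below 0 in 2 lines, those of SMOX and AZIN1 below 0 in 1 line each, and that of OAZ2 above 0 in 1. For OAZ1 it lay above 0 in 2 lines and below 0 in 1, although its log2 ratios were only −0.0494 to 0.045.

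**Figure D3:**
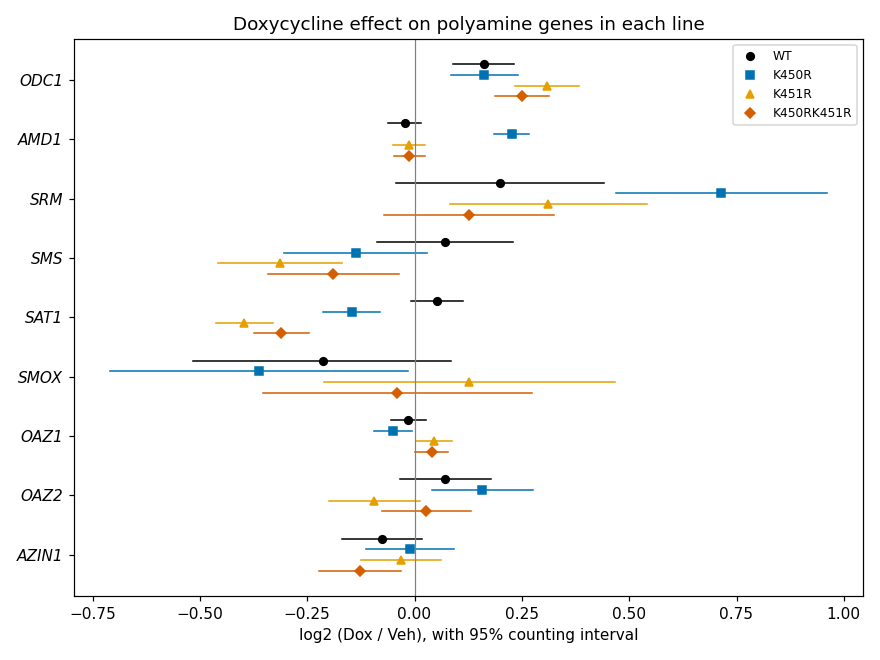
Log2 ratio of Dox to Veh (horizontal axis) for each gene in the 4 lines, with bars for the 95% counting interval. ODC1 lies above 0 in all 4 lines, SAT1 below 0 in the 3 mutant lines, and SRM in K450R is the point farthest from 0 (0.71).

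Whether the lines differed in level, with Dox as an additive term, was asked next, with the Veh and the Dox library of a line as its only measurements. SAT1 was the only one of the 9 genes to pass (adjusted p = 0.0152 with edgeR), against 3.05% of all genes tested, and 5 of the 9 passed at an unadjusted p under 0.05, against 15.2%. SAT1 was lowest in K450RK451R and highest in WT on average, and without K450RK451R its adjusted p from edgeR was 0.144. With Veh, SAT1 spanned 380.4 to 449.0 CPM, and its lowest values were those of K451R and K450RK451R with Dox (320.1 and 306.9 CPM). The test cannot separate the level of a line from a Dox response that differs between lines. ODC1, highest in K450RK451R with Veh and with Dox, had an adjusted p of 0.0839 with edgeR, and the other 3 genes at an unadjusted p under 0.05 were AZIN1, SMS and SRM (adjusted p of 0.170, 0.191 and 0.240 with edgeR). Without WT, ODC1 passed as well (adjusted p = 0.0314 with edgeR).

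The difference between the Dox effect in the 3 mutant lines and that in WT was tested as an interaction, in which the only WT pair was assumed to vary like the mutants. The 3 mutants served as replicates although they are different proteins, so true differences between them count as spread in this test. None of the 9 genes passed with edgeR, against 0.163% of all genes, and 1 of the 9, SAT1, had an unadjusted p under 0.05, against 7.1%. For SAT1 the log2 difference was −0.34 (SE 0.11, adjusted p = 0.458 with edgeR). Without K450R, the mutant in which SAT1 was least lowered, it was −0.41 and passed (adjusted p = 0.0264 with edgeR). Among all fits with 1 mutant left out, it lay between −0.41 and −0.28, with an adjusted p from edgeR of up to 0.737. The corresponding differences were 0.080 (SE 0.11) for ODC1 and 0.17 (SE 0.22) for SRM, so the data did not resolve a difference of that size for either gene. DESeq2 and limma-voom called none of the 9 genes in this comparison either.

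After silencing of EHMT1, none of the 9 genes passed an adjusted p of 0.05 with edgeR, DESeq2 or limma-voom, and 0.131% of the 14532 genes tested passed with edgeR. At an unadjusted p under 0.05 with edgeR, 4 of the 9 genes passed, 2 higher (SAT1 and OAZ2) and 2 lower (AMD1 and AZIN1). Of all genes, 9.55% passed, 4.46% higher and 5.09% lower. The median log2 fold change of the 9 genes was −0.053 and that of all genes tested −0.0021. EHMT1 itself fell by 1.51 on the log2 scale (SE 0.11, adjusted p = 1.48e-07 with edgeR).

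SAT1 was at 86.15 and 91.89 CPM with siNTC and at 116.5 and 115.1 CPM with siEHMT1, so that both silenced samples lay above both controls. Its log2 fold change was 0.38 (SE 0.094, adjusted p = 0.137 with edgeR), the smallest p of the 9 genes. AMD1 was at 852.7 and 943.2 CPM with siNTC and at 758.2 and 733.7 CPM with siEHMT1, without overlap. Its log2 fold change was −0.27 (SE 0.093, adjusted p = 0.329 with edgeR). AZIN1 was at 159.4 and 178.6 CPM with siNTC and at 144.0 and 138.9 CPM with siEHMT1, also without overlap, a log2 fold change of −0.26 (SE 0.092, adjusted p = 0.348 with edgeR). OAZ2 was at 97.67 and 100.4 CPM with siNTC and at 119.3 and 109.8 CPM with siEHMT1, a log2 fold change of 0.21 (SE 0.094, adjusted p = 0.484 with edgeR).

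ODC1 stayed close to its control level, at 415.2 and 419.0 CPM with siNTC and 407.9 and 396.2 CPM with siEHMT1, a log2 fold change of −0.053 (SE 0.086). SRM was at 112.4 and 90.12 CPM with siNTC and 96.76 and 83.27 CPM with siEHMT1, and these ranges overlapped (log2 fold change −0.17, SE 0.11). SMS was at 51.76 and 50.0 CPM with siNTC and 61.38 and 56.05 CPM with siEHMT1 (log2 fold change 0.21, SE 0.11). OAZ1 was at 689.7 and 634.4 CPM with siNTC and 762.5 and 711.3 CPM with siEHMT1 (log2 fold change 0.15, SE 0.092). SMOX had 34 to 49 counts per sample, at 3.684 and 6.719 CPM with siNTC and 4.28 and 3.912 CPM with siEHMT1. Its log2 fold change of −0.28 (SE 0.32) turned to 0.15 without the second siNTC sample, the sample in which the ribosomal RNA-like pseudogenes were high, and was −0.23 when those pseudogenes were left out of the fit. The adjusted p of these 5 genes with edgeR lay between 0.564 and 0.894.

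**Figure D4:**
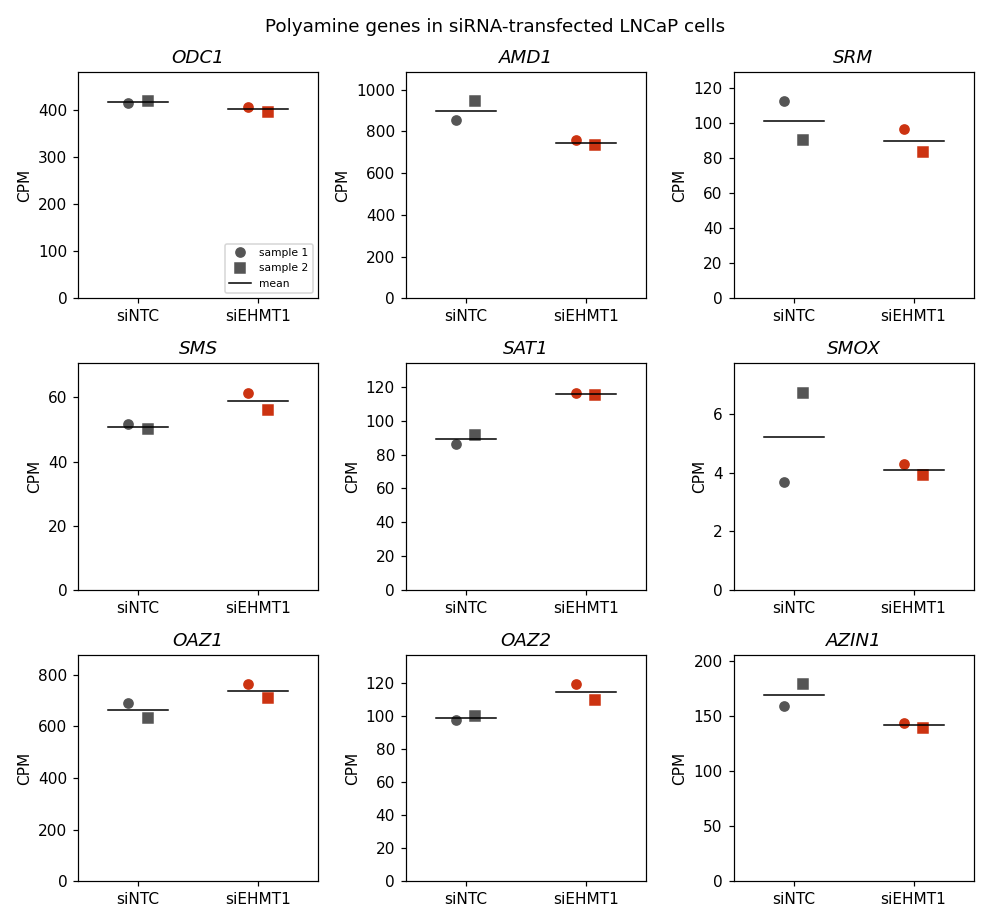
Level in CPM (vertical axis, from 0) of each gene in the 2 siNTC and 2 siEHMT1 samples (points), with the group mean as a bar. SAT1 is higher and AMD1 and AZIN1 are lower in both siEHMT1 samples than in both siNTC samples, and ODC1 differs little.

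The siRNA and Dox comparisons share no sample, and the fitted changes of each gene can be set side by side. SAT1 and SMS had a positive log2 fold change with siEHMT1 (0.38 and 0.21) and a negative one with Dox (−0.20 and −0.14). SRM had a negative value with siEHMT1 and a positive one with Dox (−0.17 and 0.33). ODC1, the gene that rose with Dox, had a value of −0.053 with siEHMT1, smaller than its SE. AMD1 had a negative value with siEHMT1 and a positive one with Dox (−0.27 and 0.045). AZIN1 (−0.26 and −0.061) and SMOX (−0.28 and −0.12) were on the lower side in both comparisons. OAZ1 (0.15 and 0.0054) and OAZ2 (0.21 and 0.040) were on the higher side in both. Of these values, that of ODC1 with Dox alone passed its test.

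**Figure D5:**
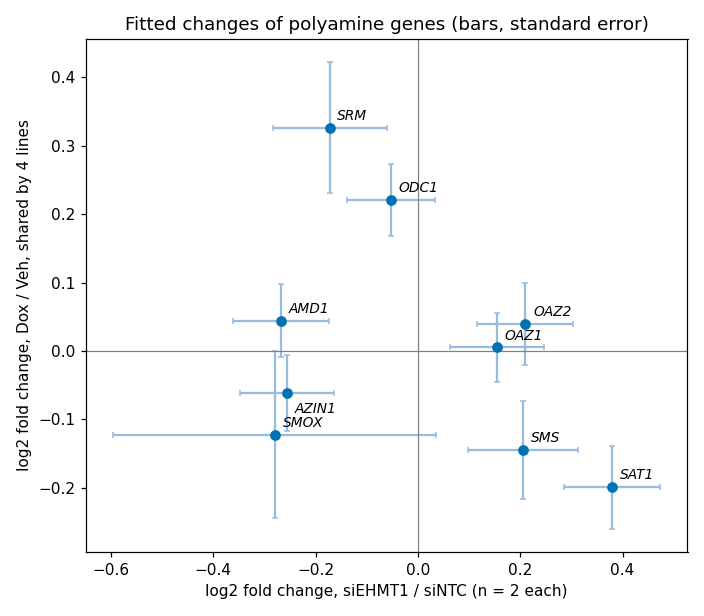
Fitted log2 fold change of each gene with siEHMT1 (horizontal axis, 2 samples against 2) and with Dox shared by 4 lines (vertical axis), with bars for the SE. SAT1 and SMS lie at the lower right, SRM at the upper left, and SMOX and AZIN1 at the lower left. ODC1 lies above 0 on the vertical axis and near 0 on the horizontal axis.

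The surrounding pathway was examined with 29 more genes in 6 lists, covering other polyamine enzymes and regulators, ornithine supply, S-adenosylmethionine supply, methionine salvage, the hypusination of EIF5A (a modification built from spermidine) and polyamine transport. With siEHMT1, 26 of them were tested and 0 passed an adjusted p of 0.05 with edgeR, DESeq2 or limma-voom (0.131% of all genes passed with edgeR), while 4 passed at an unadjusted p under 0.05 with edgeR (9.55% of all genes). The smallest p values were those of MAT1A, a synthase of S-adenosylmethionine, OAT, which makes and uses ornithine, and ARG1, an arginase. MAT1A was at 3.306 and 4.348 CPM with siNTC and 9.603 and 6.547 CPM with siEHMT1, a log2 fold change of 1.10 (SE 0.28, adjusted p = 0.158 with edgeR). OAT was at 11.62 and 11.07 CPM with siNTC and 8.142 and 7.026 CPM with siEHMT1 (log2 fold change −0.59, SE 0.21, adjusted p = 0.348 with edgeR). ARG1 had 6 counts in each siNTC sample and 19 and 21 with siEHMT1 (log2 fold change 1.20, SE 0.54, adjusted p = 0.484 with edgeR).

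With Dox, 25 of the 29 genes were tested and 1 passed, against 2.11% of all genes. SLC3A2, the heavy chain of several amino acid transporters, listed here with polyamine transport, was at 326.2 and 332.2 CPM with Veh and Dox in WT. The corresponding values were 299.4 and 244.6 CPM for K450R, 279.7 and 221.5 CPM for K451R, and 249.3 and 195.5 CPM for K450RK451R. The 3 mutant lines were lower with Dox and WT was not, as with SAT1. Its shared log2 fold change was −0.24 (SE 0.060, adjusted p = 0.0339 with edgeR), and the call was lost without any 1 of the mutant lines (adjusted p of 0.174 to 0.230 with edgeR) with DESeq2 (adjusted p = 0.0722), with upper-quartile scaling (0.0513) and from the first columns alone (0.0657). The other 5 lists had 0 genes past the adjusted threshold with Dox.

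SLC3A2 also differed between the lines (adjusted p = 3.98e-04 with edgeR), as did ATP13A3, a polyamine transporter of the P-type ATPase family (adjusted p = 0.0342 with edgeR). These were 2 of 25 genes tested, against 3.05% of all genes. ATP13A3 was lowest in WT, at 41.95 CPM with Veh and 44.4 CPM with Dox, against 50.01 to 62.99 CPM in the mutant lines. Without WT, the adjusted p from edgeR was 0.787 for ATP13A3 and 0.0512 for SLC3A2, and for ATP13A3 it was 0.0993 without K451R. The ATP13A3 call was also lost with DESeq2 (adjusted p = 0.153), without a filter on low counts (0.0608) and from the second columns alone (0.359). Between the Dox effects of mutants and WT, 0 of the 25 genes passed with edgeR, DESeq2 or limma-voom, and 4 had an unadjusted p under 0.05 with edgeR, against 0.163% and 7.1% of all genes with edgeR. SLC3A2 had a log2 difference of −0.35 (SE 0.11, adjusted p = 0.415 with edgeR). MAT2A, the S-adenosylmethionine synthase of most tissues, had 0.95 (SE 0.32). With Veh and Dox it was at 14.69 and 9.354 CPM in WT, 11.96 and 13.01 CPM in K450R, 16.29 and 17.25 CPM in the K451R line, and 13.49 and 20.76 CPM in K450RK451R, and the counting intervals of its log2 ratio in K450R and K451R included 0. MTAP, the methylthioadenosine phosphorylase of methionine salvage, had 0.74 (SE 0.29), and the counting interval of its log2 ratio left out 0 in K450RK451R alone. Both differences rest on the only WT pair, in which the Dox library had 83 counts of MAT2A and 102 of MTAP.

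Over the 8 stable-line conditions, the genes whose log2 CPM followed that of ODC1 most closely, among 9082 genes with a mean of at least 10 CPM, were ANKRD28 and VARS (Pearson r = 0.972 each) and NUP62 (0.955). For SAT1 they were COX8A and RGS14 (0.985 each) and H3F3B (0.982). COX8A ranged from 333.0 to 411.0 CPM and H3F3B from 371.0 to 643.0 CPM. These correlations are a description over 8 libraries that share line and treatment, chosen as the highest of many, and carry no p.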

How the data were processed

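RNA-seq was performed on LNCaP cells with a stranded total RNA kit. Per the labels, the deposited values are raw read counts per Ensembl gene, on hg19, and the submitters' processing notes list FastQC 0.11.9, STAR 2.7.2 and featureCounts 1.6.4. The strand setting of the counting is not given in the sources used here. The columns of each stable-line condition were summed to 8 libraries, with the lines as replicates. Counts were scaled by TMM. Low counts were removed with the default of filterByExpr in edgeR (by siRNA group, or by Veh and Dox), and the rest was tested with edgeR 4.0.16 (quasi-likelihood, R 4.3.3), with Benjamini-Hochberg adjustment over all genes tested. The procedures were tested on simulated counts. DESeq2 1.42.0, limma-voom 3.58.1, other scalings, no filter, a replicate block, single columns and leaving out samples or lines were alternatives. Lengths and positions came from GENCODE release 44 on GRCh37. Wider pathway genes were named if past an adjusted p of 0.05, and otherwise as the 3 with the smallest p. AZIN2 was read under its older symbol, ADC. Pseudogenes of members held at most 93 counts. The genes, lists and tests were chosen with earlier results of these data known.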

Additional observations from a re-analysis of the deposited data

Results flagged for a closer look

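In groups of 4 lines, a value was marked where its gap to the nearest other value made up an unusually large part of the whole range, by Dixon's criterion. Of 27 such groups tested, 2 were marked, and chance marks about 1 in 20. For the log2 ratio of Dox to Veh of AMD1, the K450R line stood apart on the high side, and its gap was 0.956 of the range (0.23 in K450R, −0.0226 to −0.0117 in the other lines). For the CPM of AZIN1 with Dox, the K450RK451R line stood apart on the low side, with a gap of 0.851 of the range (150.5 CPM, against 180.1 to 185.2 CPM in the other lines).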

How the results depend on the processing

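The count of the 9 genes past an adjusted p of 0.05 is given first. With siEHMT1 it was 0, and 1 (SAT1, adjusted p = 0.0260 with edgeR) with a replicate block, in which MAT1A also passed (adjusted p = 0.0339 with edgeR). Same-numbered siRNA samples did not deviate together (Pearson r = −0.00226 across genes). No pairing was assumed in the main fit, although this check cannot exclude one. With Dox the count was 1, and 4 (ODC1, SRM, SMS and SAT1) over 16 columns taken as samples, with a replicate block or without the column number, 0 without the line block, and 0 to 3 with a line left out. Between lines it was 1, 2 with limma-voom and 0 to 2 with a line left out. For mutants against WT it was 0, and 0 to 1 with a mutant left out. In K450R, 2 genes (SRM and SMOX) were past 1.5-fold from the first columns alone.

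Of all genes, 19 passed with siEHMT1, 12 with DESeq2 or no filter, 118 with the replicate block and 38 to 110 with a sample left out. With Dox 298 passed, 140 with DESeq2, 1900 over 16 columns with the replicate block and 2000 without the column number, 4 without the line block, and 114 to 501 with a line left out. Between lines 430 passed, 239 with DESeq2 and 252 to 421 with a line left out. For mutants against WT 23 passed, 43 with limma-voom, 15 without a filter and 33 to 101 with a mutant left out.

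Log2 values near 0 changed sign: for mutants against WT, from first columns, SMOX (−0.12), OAZ2 (0.014) and AZIN1 (−0.058); with Dox, from second columns, OAZ1 (−0.0076); and K450RK451R SRM, from first columns, −0.17. Within lines, log2 ratios that crossed 0 under other columns or scalings were also those of WT SRM (−0.015 to 0.43), SMS (−0.0455 to 0.20) and OAZ1 (−0.0259 to 0.0047), K450R AZIN1 (−0.0377 to 0.0174), K451R AMD1 (−0.0224 to 0.00043), and K450RK451R AMD1 (−0.0235 to 0.0033) and SMOX (−0.218 to 0.123). With a sample or line left out they were SMOX with siEHMT1 (−0.72 to 0.15), AMD1 (−0.015 to 0.067) and OAZ1 (−0.0086 to 0.024) with Dox, and AZIN1 (−0.0038 to 0.055) and OAZ2 (−0.11 to 0.021) for mutants against WT. ODC1 passed with Dox under DESeq2, limma-voom and each scaling. The causes were not tested. Depth limits SMOX in both tables and SRM in the stable lines.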

Other observations

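The ratio of ODC1 to SAT1 counts within a library needs no scaling between libraries, and it was not divided by length. With Veh it was 0.695 in WT, 0.653 in K450R, 0.664 in the K451R line and 0.898 in K450RK451R, and with Dox it was 0.749, 0.808, 1.08 and 1.32 in the same order. It was higher with Dox in each of the 4 lines, which in the mutant lines restates the higher ODC1 and lower SAT1 given above. In the siRNA samples it was 4.82 and 4.56 with siNTC and 3.50 and 3.44 with siEHMT1. The ratio of SRM to SMS counts was 0.412, 0.363, 0.340 and 0.539 with Veh and 0.451, 0.654, 0.524 and 0.671 with Dox in WT, K450R, K451R and K450RK451R. These are summed counts, and the direction of SRM in WT and K450RK451R depended on the columns used. The ratio of AMD1 to SAT1 counts was lower with Dox in WT (2.49 with Veh, 2.36 with Dox). In K450R, K451R and K450RK451R it was higher with Dox (2.37, 2.72 and 3.01 with Veh, 3.07, 3.55 and 3.71 with Dox).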
